A study of Mus musculus with 6 samples.

Results

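Respiratory complex I (NADH:ubiquinone oxidoreductase) was followed through its nuclear subunit genes and the assembly factors named Ndufaf in mouse neuroblastoma cells kept for 96 h in retinoic acid medium, against the same line at 0 h. Members were all rows of the deposited gene table whose symbol is Nduf followed by a, b, c, s, v, ab or af, a number and at most 1 further letter. There were 51 such rows among 40413, of which 43 were subunit rows and 8 were assembly factors. The 43 subunit rows held 7 catalytic core subunits, 10 accessory subunits of the matrix arm and 20 of the membrane arm. They also held 5 near-copies (Ndufa11b, Ndufb11b, Ndufb4b, Ndufb4c and Ndufs6b) and Ndufa4, which carries a complex I name but is known as a subunit of complex IV. The members were taken by a rule on names and not by a cut on measured values, though earlier results of these data were known.

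RNA sequencing libraries were made from N2A-A5 cells, described in the labels as acceptor cells; N2A stands for Neuro-2a, a mouse neuroblastoma line. The 3 libraries at 96 h came from cells in differentiation medium with 1% fetal bovine serum (FBS) and 10 µM retinoic acid, without blasticidin, and the 3 libraries at 0 h came from undifferentiated cells in medium with 10% FBS and 10 µg/mL blasticidin. Each group's libraries are biological replicates in the design text, all of a single line. Retinoic acid, serum, blasticidin and time in culture changed together, so their contributions cannot be told apart.

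Complex I takes electrons from NADH, passes them along a flavin and a chain of iron-sulphur clusters in its matrix arm to ubiquinone, and pumps protons through its membrane arm. Its catalytic core is encoded partly in the nucleus (the core Nduf genes, whose proteins hold the flavin, the clusters and most of the ubiquinone site) and partly in mitochondrial DNA (the ND genes, whose proteins form the membrane core with its proton channels). Accessory subunits surround the core. Assembly factors join and modify intermediates and are absent from the finished complex. Neurons depend heavily on oxidative phosphorylation for ATP.

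Library totals lay between 16.8 M and 20.9 M estimated counts (M, mega). Levels are given as CPM, that is, counts scaled to the depth of each library with TMM factors. A gene passed the test where the Benjamini-Hochberg adjusted p of edgeR's quasi-likelihood test over all 13705 tested genes was under 0.05. All 6 neuroblastoma and sympathetic markers looked at (among them Phox2a, Hand2, Gata3, Tubb3 and Chga) were present in both groups, with a summed level of 853 to 892 CPM at 96 h and 1201 to 1257 CPM at 0 h. The 13 markers of glia, fibroblasts, endothelium, leukocytes and epithelium summed to 10.5 to 13.0 CPM at 96 h and 9.09 to 12.4 CPM at 0 h. Of these, the leukocyte marker Ptprc was at 0 in every 0 h library, and 9 of the 13 were too low to be tested. The row Gm26917 took 30.5% ± 1.59 of all counts at 96 h and 20.2% ± 2.20 at 0 h, and nuclear protein-coding genes took 49.8% ± 1.95 at 96 h and 65.5% ± 2.05 at 0 h (SD, n = 3 each). The part of these shifts in the results was not tested. In such bulk libraries fewer cells of a type and less RNA per cell cannot be told apart.

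Complex I subunit genes did not move as a block. Of the 43 subunit rows, 40 had enough counts to be tested, and of these 10 were higher at 96 h, 12 were lower and 18 did not pass. Among all 13705 tested genes 28.7% were higher and 28.8% were lower (57.4% either way), so the subunits' shares of 25% higher and 30% lower lie near the background. The median log2 fold change of the 40 rows was -0.09 (range -0.60 to 0.69), beside 0.03 over all tested genes. Of the 8 assembly factors, all tested, 1 was higher, 4 were lower and 3 did not pass, with a median of -0.23 (range -0.58 to 0.64). Their share of 50% lower rests on 4 genes. The 3 libraries of 96 h did not overlap those of 0 h in 24 of the 40 subunit rows and 5 of the 8 assembly factors, beside 64.1% of all tested genes. Of nuclear protein-coding genes, 32.1% were lower and 27.1% higher, and of those in the members' range of mean CPM, 35.6% were lower and 27% higher.

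**Figure D1:**
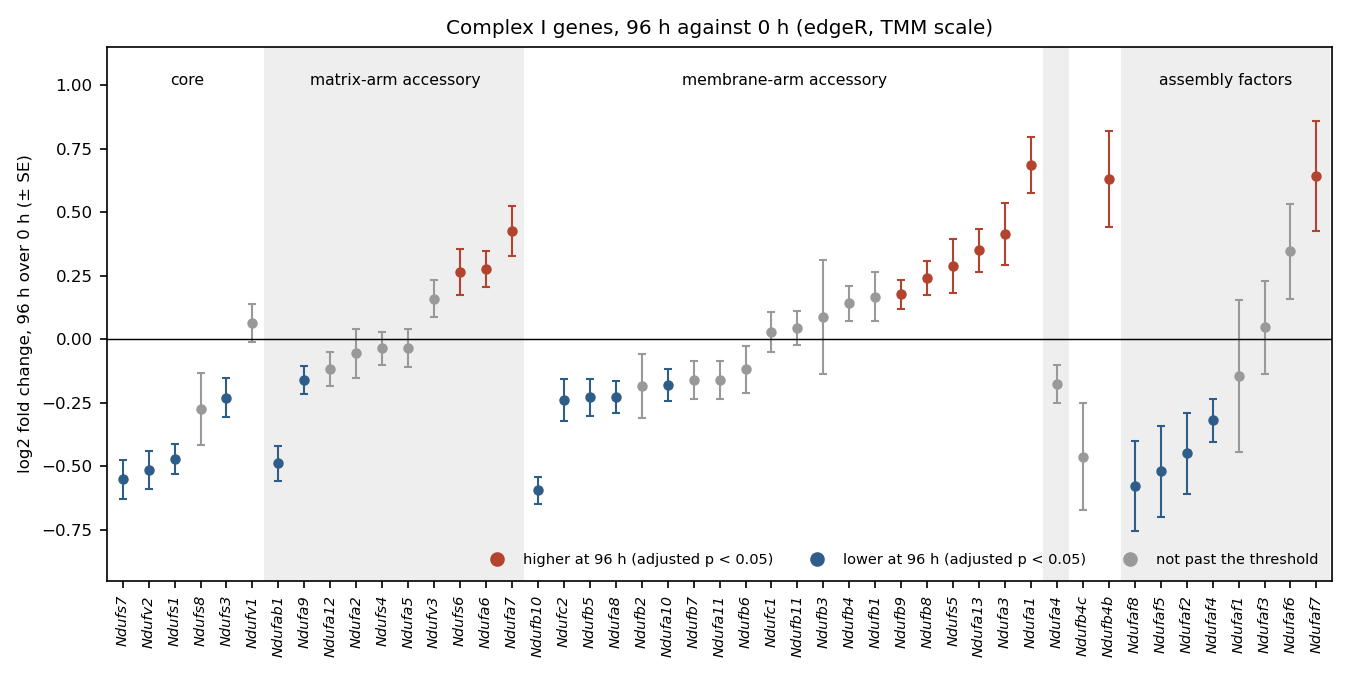
Log2 fold change (y axis, 96 h over 0 h) of the tested members drawn (x axis, grouped by role; Ndufa4 and the copies stand between the membrane-arm subunits and the assembly factors), with bars of 1 SE on each side and colours for higher, lower and not past the threshold. Values lie on both sides of 0 within each accessory group, from -0.60 for Ndufb10 to 0.69 for Ndufa1, whereas 5 of the 6 core subunits drawn lie below 0.

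These counts depend on how libraries are scaled and on single libraries. Under upper-quartile scaling 13 subunit rows were higher and 5 lower, and under plain library-size scaling, which moved the median of all genes by -0.25, 1 was higher and 25 were lower. Leaving out replicate 2 of 0 h left 7 subunit rows lower, and leaving out replicate 3 of 96 h left 5 higher. Among the 48 tested members, replicate 3 of 96 h was the highest of its group for 28 and replicate 3 of 0 h was the lowest of its group for 28. The part of these libraries in the single results was not tested.

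Core subunits of the matrix arm lay mostly below 0. Of the 6 described here, 4 were lower at 96 h (Ndufs7, Ndufv2, Ndufs1 and Ndufs3), none was higher and 2 did not pass (Ndufs8 and Ndufv1). Beside these few genes, 28.8% of all tested genes were lower. Whether core subunits differ from the other subunits was not tested.

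Ndufs7, which holds the last iron-sulphur cluster before ubiquinone, had 22.7, 22.0 and 24.8 CPM at 96 h, against 34.4, 32.4 and 35.2 CPM at 0 h. All 3 libraries of 96 h lay below all 3 of 0 h (log2 fold change -0.55, SE 0.08, adjusted p = 3.02e-05). Ndufv2, which carries an iron-sulphur cluster beside the flavin site, had 57.3, 63.6 and 68.3 CPM at 96 h, against 94.1, 94.7 and 81.9 CPM at 0 h. The groups did not overlap (log2 fold change -0.52, SE 0.07, adjusted p = 4.54e-05). Ndufs1, the largest subunit, which carries several of the clusters, had 48.8, 46.4 and 48.7 CPM at 96 h, against 70.2, 64.2 and 65.3 CPM at 0 h. These libraries too were apart, with little spread in either group (log2 fold change -0.47, SE 0.06, adjusted p = 1.43e-05). Its exons overlap Eef1b2 and Ino80dos on the opposite strand. No source used here gives the strand setting of the counting, so its level is uncertain to that extent. Such an overlap is present in 17 members. On the same strand, 3 members overlap an exon of another gene: Ndufb2 (Gm42420), Ndufb8 (Gm20538) and Ndufb9 (Gm49356). The part of this in their levels was not tested.

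The change of Ndufs3 was smaller. This core subunit of the ubiquinone-facing module without a cluster of its own had 25.4, 25.9 and 27.9 CPM at 96 h, against 33.1, 30.4 and 29.4 CPM at 0 h. The groups did not overlap (log2 fold change -0.23, SE 0.08, adjusted p = 0.0198), but the call was lost under upper-quartile scaling (-0.15), without replicate 1 of 96 h (-0.21), without replicate 2 of 96 h (-0.22) and without replicate 1 of 0 h (-0.19).

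Ndufs8, an iron-sulphur subunit next to Ndufs7, had 8.53, 11.7 and 9.30 CPM at 96 h, against 11.9, 11.1 and 12.9 CPM at 0 h. Replicate 2 of 96 h stood above the other libraries of its group and reached into the range of 0 h, and the difference did not pass (log2 fold change -0.27, 95% interval -0.58 to 0.03, adjusted p = 0.113). Without that replicate it was -0.42 and passed. Ndufv1, which binds NADH and the flavin, had 42.5, 46.7 and 48.4 CPM at 96 h, against 39.8, 46.2 and 45.7 CPM at 0 h. Its groups overlapped (log2 fold change 0.06, 95% interval -0.10 to 0.23, adjusted p = 0.496), so a change of the size seen in Ndufv2, its partner in the NADH-binding module, lies outside its interval.

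Accessory subunits of the matrix arm went both ways. Of the 10, 3 were higher (Ndufa7, Ndufa6 and Ndufs6), 2 were lower (Ndufab1 and Ndufa9) and 5 did not pass, with a median log2 fold change of -0.04. Under plain library-size scaling, none was higher and 6 were lower. Ndufab1, the mitochondrial acyl carrier protein, which also serves fatty acid synthesis and iron-sulphur cluster assembly outside complex I, had 53.2, 45.3 and 47.8 CPM at 96 h, against 68.2, 70.7 and 66.0 CPM at 0 h. The groups were apart by more than their spread (log2 fold change -0.49, SE 0.07, adjusted p = 3.00e-05). The pseudogene Ndufab1-ps, of 468 bases, is 99.4% identical to Ndufab1 over 469 aligned positions, which are only a part of the annotated Ndufab1 RNA. Estimated counts of Ndufab1-ps were 12.5 to 13.3 at 96 h and 16.5 to 34.1 at 0 h. With both rows summed the change was also -0.49. Ndufa9, which binds a nucleotide near the joint of the arms, was lower at -0.16 ± 0.06 on the log2 scale (SE, adjusted p = 0.0246). That call was lost under 5 alternatives, among them the removal of replicate 2 of 96 h (-0.16) and of replicate 1 (-0.15) or 2 (-0.16) of 0 h.

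Ndufa7 had 16.9, 20.3 and 19.1 CPM at 96 h, against 13.4, 14.3 and 14.2 CPM at 0 h. It was higher in all 3 libraries of 96 h (log2 fold change 0.43, SE 0.10, adjusted p = 0.00200), while under plain library-size scaling the change was 0.17 and did not pass. Ndufa6, of the LYR protein family that docks the acyl carrier protein, was higher at 0.27 ± 0.07 (adjusted p = 0.00468), and 0.02 under plain library-size scaling. Ndufs6, a zinc-binding subunit, was higher at 0.26 ± 0.09 (adjusted p = 0.0241), a call that was lost under plain library-size scaling (0.01), with DESeq2 (0.23) and on leaving out any single library but replicate 1 of 96 h (0.17 to 0.27). The 5 that did not pass were Ndufv3 at 0.16 ± 0.07, Ndufs4 at -0.04 ± 0.06, Ndufa5 at -0.04 ± 0.08, Ndufa2 at -0.06 ± 0.10 and Ndufa12 at -0.12 ± 0.07 (log2 fold change and SE). Ndufv3 passed without replicate 2 of 0 h (0.22). Ndufs4 is the subunit whose loss in mice is used as a model of Leigh syndrome, and its 95% interval was -0.17 to 0.10.

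Membrane-arm accessory subunits held both extremes of the whole set. Of the 20, 6 were higher, 5 were lower and 9 did not pass, with a median log2 fold change of 0.04. Under plain library-size scaling, 1 was higher and 11 were lower, and under upper-quartile scaling 8 were higher and 1 was lower. Ndufb10, a cysteine-rich subunit of the distal membrane arm, had 58.3, 58.4 and 59.6 CPM at 96 h, against 91.0, 88.0 and 87.4 CPM at 0 h. Its 96 h libraries lay within 2 CPM of each other and its mean was 66.2% of that of 0 h (log2 fold change -0.60, SE 0.05, adjusted p = 3.78e-07). Ndufa1, a small X-linked membrane subunit at the joint of the arms that is needed for assembly, had 20.1, 17.0 and 21.5 CPM at 96 h, against 12.1, 12.9 and 11.3 CPM at 0 h. It showed the largest rise of the tested members, with every library of 96 h above every library of 0 h (log2 fold change 0.69, SE 0.11, adjusted p = 0.000109).

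Ndufa3 and Ndufa13 rose by less. Ndufa3, a small membrane subunit, had 17.4, 16.9 and 20.3 CPM at 96 h, against 12.9, 12.1 and 16.1 CPM at 0 h. The libraries were apart (log2 fold change 0.41, SE 0.12, adjusted p = 0.00972), but the call was lost under plain library-size scaling (0.17), without replicate 3 of 96 h (0.32) and without replicate 2 of 0 h (0.32). Ndufa13, also called GRIM-19 and first described as a gene of cell death induced by retinoic acid and interferon, had 36.4, 38.4 and 44.3 CPM at 96 h, against 31.4, 33.2 and 28.8 CPM at 0 h. It was higher in all 3 libraries (log2 fold change 0.35, SE 0.08, adjusted p = 0.00281), and under plain library-size scaling the change was 0.10 and did not pass. Exons of Ndufa3 overlap Tfpt, and exons of Ndufa13 overlap Tssk6, on the opposite strand.

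**Figure D2:**
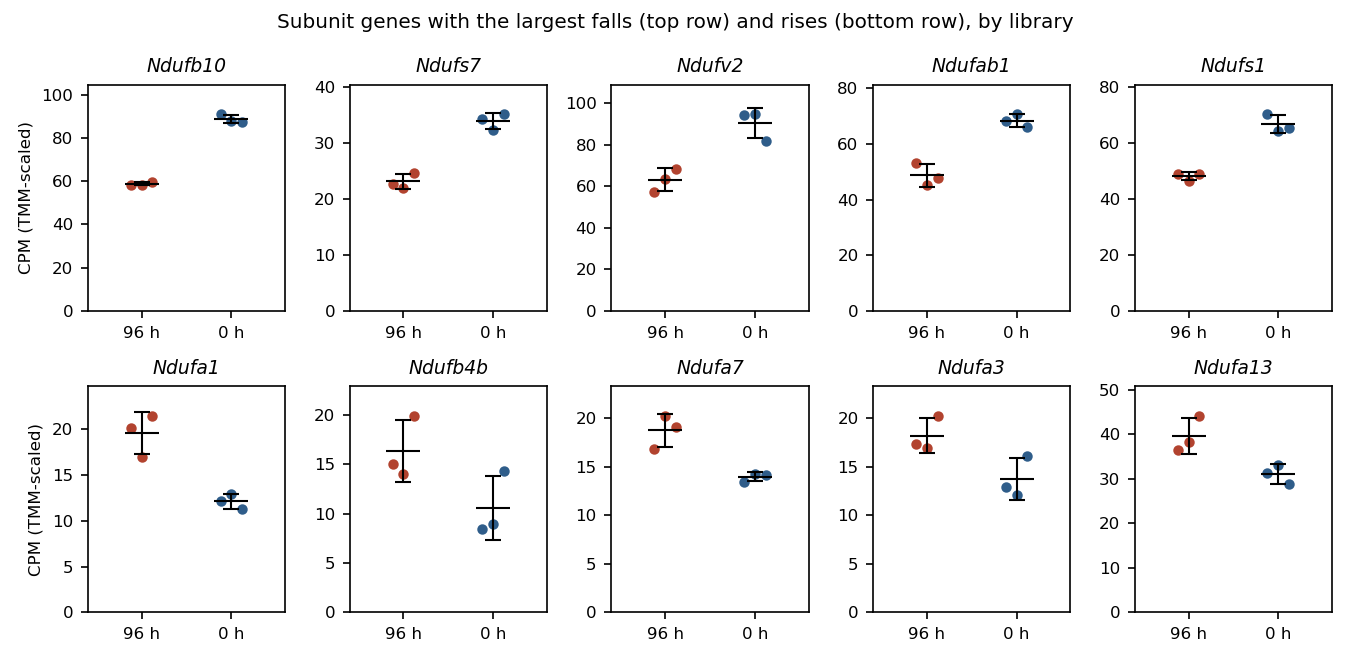
CPM (y axis of each panel, linear from 0) in each library for the 5 subunit rows with the largest fall and the 5 with the largest rise among those past the threshold, 96 h left of 0 h; points are libraries, and lines with bars are the group mean and SD. The groups are apart in every panel but Ndufb4b, where 14.0 CPM at 96 h lies below 14.3 CPM at 0 h.

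Other membrane-arm subunits that were higher were Ndufs5 at 0.29 ± 0.11, Ndufb8 at 0.24 ± 0.07 and Ndufb9 at 0.18 ± 0.06 on the log2 scale (SE), of which Ndufb8 and Ndufb9 turned to -0.013 and -0.073 under plain library-size scaling, where Ndufs5 was at 0.036 and did not pass. Ndufs5 was also no longer past the threshold with DESeq2 (0.26) and without replicate 3 of 96 h (0.20) or of 0 h (0.15), and Ndufb9 not without replicate 1 (0.16) or 3 (0.16) of 96 h or replicate 1 of 0 h (0.11). Those that were lower were Ndufc2 at -0.24 ± 0.08, Ndufb5 at -0.23 ± 0.07, Ndufa8 at -0.23 ± 0.06 and Ndufa10 at -0.18 ± 0.06, and none of these 4 passed under upper-quartile scaling. Leaving out single libraries also ended the calls of Ndufc2 (replicate 2 or 3 of 96 h or 1 or 2 of 0 h, -0.25 to -0.18), Ndufb5 (replicate 1 of 96 h or 2 of 0 h, -0.20 and -0.21) and Ndufa10 (replicate 1 of 96 h or 1 or 2 of 0 h, -0.18 to -0.15). The 9 that did not pass lay between -0.18 ± 0.12 for Ndufb2 and 0.17 ± 0.10 for Ndufb1, and of these Ndufb7 passed without replicate 3 of 96 h (-0.24). Among them was the X-linked Ndufb11 (log2 fold change 0.04, 95% interval -0.10 to 0.19), so the X-linked subunits Ndufa1 and Ndufb11 had intervals that do not overlap.

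Near-copies limit what can be said of a few rows. Ndufb4b, a copy of Ndufb4 on another chromosome, had 15.1, 14.0 and 20.0 CPM at 96 h, against 8.48, 8.93 and 14.3 CPM at 0 h. It passed (log2 fold change 0.63, SE 0.19, adjusted p = 0.0110) although its groups overlapped, and the call was lost under plain library-size scaling (0.39), without replicate 3 of 96 h (0.45) and without replicate 1 (0.49) or 2 (0.51) of 0 h. The other copy, Ndufb4c, whose annotated RNA of 390 bases is identical in all 390 positions to Ndufb4, had 5.87, 8.36 and 4.68 CPM at 96 h, against 9.45, 9.48 and 7.04 CPM at 0 h and did not pass (log2 fold change -0.46, 95% interval -0.92 to -0.01, adjusted p = 0.0771). Without replicate 2 of 96 h (-0.73) or replicate 3 of 0 h (-0.60) it passed. Ndufb4 itself was at 0.14 ± 0.07 and did not pass (adjusted p = 0.101), whereas the sum of the 3 rows, tried after seeing the data, was higher at 0.18 ± 0.06 (adjusted p = 0.0232). Estimated counts of Ndufb4, Ndufb4b, Ndufb4c, Ndufab1 and Ndufs5 lay more than 0.01 from a whole number in all 6 libraries, as happens where reads are split between rows, and those of Ndufs7 in 5. Some other rows lay closer than that to a whole number without being whole.

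Members under the minimum for testing were Ndufa11b, Ndufb11b and Ndufs6b. Ndufa11b had no counts in any library. Ndufb11b had 2, 1 and 2 counts in the libraries of 96 h, against 1, 2 and 7 counts at 0 h. Ndufs6b had, rounded, 3, 1 and 0 counts at 96 h, against 2, 0 and 2 counts at 0 h. All are too low for a comparison. Ndufa4, the complex IV subunit with a complex I name, had 32.3 ± 2.20 CPM at 96 h and 36.5 ± 2.06 CPM at 0 h (SD, n = 3 each) and did not pass (log2 fold change -0.18, 95% interval -0.34 to -0.01, adjusted p = 0.0589). It passed without replicate 3 of 96 h (-0.24) or of 0 h (-0.22).

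Assembly factors had lower levels and larger errors than subunits. Per kilobase of annotated RNA, the median level of the nuclear subunits was 37.2 CPM per kb at 96 h and 41.7 CPM per kb at 0 h, and that of the 8 assembly factors was 4.91 CPM per kb at 96 h and 5.34 CPM per kb at 0 h. Per kb, the lowest nuclear subunit was Ndufb2 (5.09 at 96 h and 5.77 at 0 h) and the highest Ndufb9 (185 at 96 h and 163 at 0 h). The rank of Ndufb2 rests on its annotated RNA of 2413 bases. In CPM not divided by length, Ndufb3 was the lowest nuclear subunit, with means of 5.76 at 96 h and 5.44 at 0 h. Assembly factors had 38 to 619 counts per library, and tested subunit rows 64 to 2968, with a median SE of the log2 fold change of 0.181 for assembly factors and 0.0753 for subunit rows. A change of a given size was therefore harder to detect in an assembly factor.

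The 4 lower assembly factors act at several steps. Ndufaf4, which works with Ndufaf3 in building the ubiquinone-facing module, had 18.6, 21.1 and 22.8 CPM at 96 h, against 25.6, 26.4 and 26.3 CPM at 0 h. Its groups did not overlap (log2 fold change -0.32, SE 0.09, adjusted p = 0.00583). Ndufaf8, the partner that stabilises Ndufaf5, had 5.06, 4.32 and 5.12 CPM at 96 h, against 7.75, 7.62 and 6.27 CPM at 0 h, and its libraries were also apart (log2 fold change -0.58, SE 0.18, adjusted p = 0.0124). Calls of both held in all 16 alternatives that gave a test. Ndufaf5, which hydroxylates an arginine of Ndufs7, had 5.13, 5.49 and 5.34 CPM at 96 h, against 6.46, 7.28 and 9.19 CPM at 0 h. It was lower without overlap (log2 fold change -0.52, SE 0.18, adjusted p = 0.0236), but not past the threshold under upper-quartile scaling (-0.44), without replicate 1 (-0.50) or 3 (-0.53) of 96 h or without replicate 3 of 0 h (-0.38). Ndufaf5, its partner Ndufaf8 and its target Ndufs7 were each lower at 96 h, and a link between these changes was not tested.

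Ndufaf2, a paralogue of Ndufa12 that acts late in assembly, had 8.46, 11.3 and 12.4 CPM at 96 h, against 14.1, 17.5 and 12.2 CPM at 0 h. The groups overlapped although the gene passed (log2 fold change -0.45, SE 0.16, adjusted p = 0.0269), and the call was lost under upper-quartile scaling (-0.37), without replicate 1 of 96 h (-0.32) and without replicate 2 of 0 h (-0.30). Ndufa12 itself did not pass (log2 fold change -0.12, 95% interval -0.26 to 0.02). Ndufaf7, a protein arginine methyltransferase of complex I assembly, had 5.59, 7.13 and 6.90 CPM at 96 h, against 5.11, 4.43 and 3.03 CPM at 0 h. It was the only Ndufaf gene called higher (log2 fold change 0.64, SE 0.22, adjusted p = 0.0213). The call was lost under plain library-size scaling (0.39), without replicate 2 (0.57) or 3 (0.60) of 96 h and without replicate 3 of 0 h (0.45).

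The remaining 3 assembly factors did not pass. Ndufaf6, known in human cells to be needed for ND1 assembly, had 5.99, 5.49 and 5.57 CPM at 96 h, against 4.18, 5.07 and 4.13 CPM at 0 h, with all libraries of 96 h above those of 0 h (log2 fold change 0.35, 95% interval -0.06 to 0.75, adjusted p = 0.129). Ndufaf3, the partner of Ndufaf4, had 5.53, 5.67 and 4.96 CPM at 96 h, against 5.11, 5.79 and 4.70 CPM at 0 h, with overlapping groups (log2 fold change 0.05, 95% interval -0.35 to 0.44). Its exons overlap Impdh2 on the opposite strand. Ndufaf1, of the membrane-arm assembly complex with Acad9, Ecsit and Tmem126b, had 2.53, 4.38 and 5.96 CPM at 96 h, against 3.36, 6.30 and 4.60 CPM at 0 h and the widest interval of the set (log2 fold change -0.14, 95% interval -0.79 to 0.50). Leaving out replicate 1 of 96 h left 2 Ndufaf genes lower, and leaving out replicate 2 or 3 of 96 h, or replicate 3 of 0 h, left none higher.

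**Figure D3:**
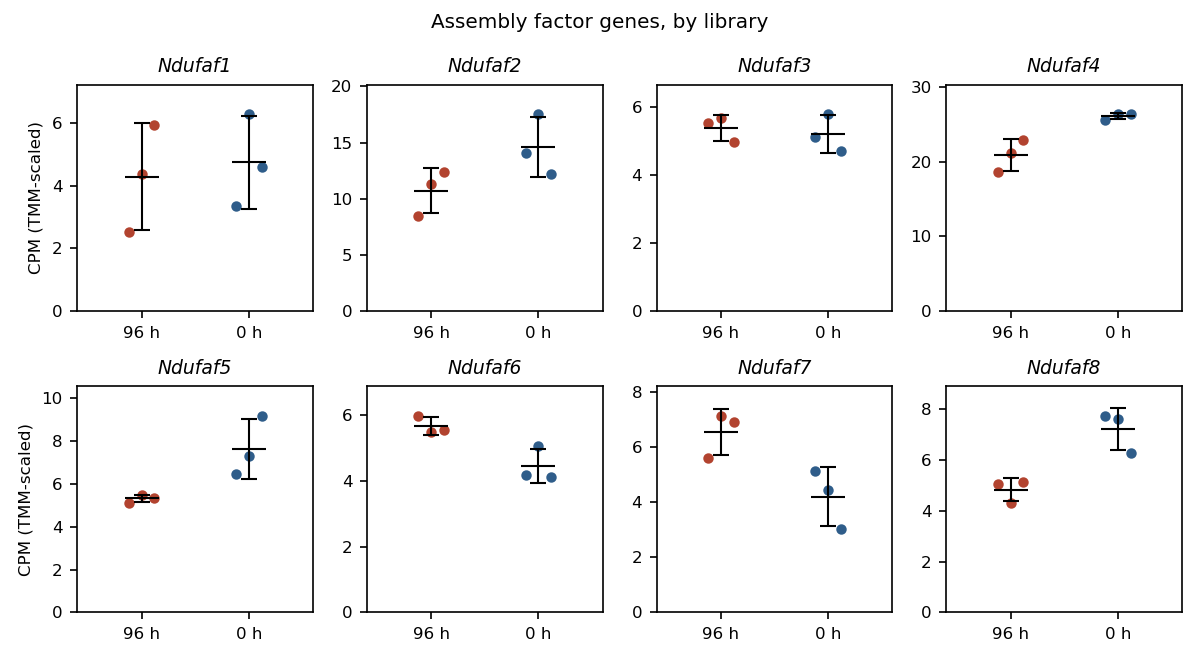
CPM (y axis of each panel, linear from 0) of the 8 Ndufaf genes in each library, 96 h left of 0 h; points are libraries, and lines with bars are the group mean and SD. Ndufaf4, Ndufaf5 and Ndufaf8 lie lower at 96 h without overlap, Ndufaf6 and Ndufaf7 lie higher without overlap, and Ndufaf1, Ndufaf2 and Ndufaf3 overlap.

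Assembly factors with other names were taken as a list of 12, of which Coa1 was not analysed here. Of the 11 tested, 4 were higher (Foxred1, Timmdc1, Nubpl and Tmem186), 1 was lower (Ecsit) and 6 did not pass, with a median log2 fold change of 0.16. Foxred1, an oxidoreductase-like factor of late assembly, had 10.5, 11.5 and 11.2 CPM at 96 h, against 7.23, 6.60 and 4.54 CPM at 0 h (log2 fold change 0.85, SE 0.17, adjusted p = 0.000849). Timmdc1, a membrane factor of the ND1 module, had 33.2, 31.4 and 30.8 CPM at 96 h, against 25.4, 25.8 and 24.5 CPM at 0 h (log2 fold change 0.33, SE 0.07, adjusted p = 0.00127). Both were apart between groups. Nubpl, which delivers iron-sulphur clusters to complex I, was higher at 1.12 ± 0.36 and Tmem186 at 0.53 ± 0.17, while Ecsit was lower at -0.38 ± 0.11. Over all tested genes, 28.7% were higher and 28.8% lower. Under plain library-size scaling, 1 of the 11 was higher and 3 were lower.

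Promoters of the members were searched for the binding motifs of 3 regulators of nuclear respiratory genes: NRF1 (its palindromic core motif, spelled in capitals in the Ndufaf4 sequence), the ETS-type factor GABP (CCGGAAG) and YY1 (AAGATGGC), all on both strands, in windows from 250 bases before to 50 after the start (RefSeq, GRCm38.p6, not the build of the counts). A window was given for 42 of the 51 members. NRF1's motif was in 7.14% of them (3 members, in Ndufaf5 after the start), beside 0.971% of all 32851 windows and 2.25% of other tested genes. Members and other tested genes were counted once each, with a match in any window of the gene, and all windows singly. GABP's motif was in 14.3% of members, beside 8.86% of all windows and 19.8% of other tested genes. YY1's was in 19.0%, beside 2.75% and 5.27%, and in all 8 members with it the match lay after the start. No motif contains another, but the end of GABP's (AAG) can begin YY1's; the only member with both, Ndufaf8, has them apart. A match is a description of letters, not a bound site. At least 1 motif was present in 6 of the 14 lower members, 3 of the 10 higher members and 7 of the 18 that did not pass. Over all 42 the share was 38.1%, beside 25.5% of other tested genes and 11.9% of all windows. GABP's motif was in 2 lower members, 0 higher members and 4 that did not pass, YY1's in 3, 3 and 2, and NRF1's in 2, 0 and 1. The 250 bases before the start of 4 members, which leave out matches after it, follow 5′ to 3′ on the gene's strand with motifs in capitals. They show an NRF1 motif (Ndufaf4) and GABP motifs near the start (Ndufs3 and Ndufaf8) in lower members. The promoter of the member that rose most (Ndufa1) has no match, nor has that of the member that fell most (Ndufb10, not shown). These 4 promoters are examples and do not stand for the lower or higher members.
Ndufaf4, chr4:24897833-24898082, plus strand: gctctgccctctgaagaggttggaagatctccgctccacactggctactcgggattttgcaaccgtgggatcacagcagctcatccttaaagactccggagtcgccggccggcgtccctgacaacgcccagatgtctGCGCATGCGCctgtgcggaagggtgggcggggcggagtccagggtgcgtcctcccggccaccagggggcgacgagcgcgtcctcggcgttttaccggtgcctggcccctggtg
Ndufs3, chr2:90904722-90904971, minus strand: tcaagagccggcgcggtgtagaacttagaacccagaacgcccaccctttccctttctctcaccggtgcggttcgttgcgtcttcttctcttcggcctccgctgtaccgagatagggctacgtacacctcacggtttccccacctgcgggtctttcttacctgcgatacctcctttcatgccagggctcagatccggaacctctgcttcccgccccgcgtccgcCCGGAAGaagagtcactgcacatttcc
Ndufaf8, chr11:120098684-120098933, plus strand: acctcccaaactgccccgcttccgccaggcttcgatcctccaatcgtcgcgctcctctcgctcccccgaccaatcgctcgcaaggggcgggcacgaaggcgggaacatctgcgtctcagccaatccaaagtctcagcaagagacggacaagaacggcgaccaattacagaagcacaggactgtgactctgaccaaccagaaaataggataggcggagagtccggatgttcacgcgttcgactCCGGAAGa
Ndufa1, chrX:37191239-37191488, minus strand: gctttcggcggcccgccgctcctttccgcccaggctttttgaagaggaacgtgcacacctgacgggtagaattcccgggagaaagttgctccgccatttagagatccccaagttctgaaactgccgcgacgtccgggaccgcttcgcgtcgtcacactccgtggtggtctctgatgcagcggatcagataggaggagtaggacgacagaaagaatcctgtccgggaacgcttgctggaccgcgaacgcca
The NRF1 motif of Ndufaf4 ends 103 bases before the start. The GABP motif shown in Ndufs3 ends 20 bases before its start, and that of Ndufaf8 1 base before. No match says only that these letters are not in the window.

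The regulators themselves were mostly lower. Of 12 listed, 11 were tested, 8 were lower, none was higher and 3 did not pass, with a median log2 fold change of -0.44. Beside this small list, 28.8% of all tested genes and 32.1% of nuclear protein-coding genes were lower. Whether the list differs from these was not tested. Under upper-quartile scaling 6 were lower, and under plain library-size scaling 10. Ppargc1b, a coactivator of respiratory genes, had 12.9, 11.7 and 10.7 CPM at 96 h, against 25.1, 25.4 and 27.1 CPM at 0 h (log2 fold change -1.14, SE 0.09, adjusted p = 1.91e-07). Gabpb1, the beta subunit of GABP, had 14.3, 16.7 and 14.3 CPM at 96 h, against 35.7, 30.1 and 34.2 CPM at 0 h (log2 fold change -1.14, SE 0.09, adjusted p = 2.00e-07). These groups were apart. The other genes whose motifs were searched were also lower, Nrf1 at -0.81 ± 0.09, Gabpa at -0.66 ± 0.08 and Yy1 at -0.51 ± 0.05. Ppargc1a, the related coactivator, was too low to be tested.

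Mitochondrially encoded subunits went the other way from the nuclear core. All 7 ND genes were higher at 96 h, by 0.95 ± 0.08 for ND2, 0.91 ± 0.08 for ND4L, 0.90 ± 0.07 for ND3, 0.86 ± 0.10 for ND4, 0.77 ± 0.09 for ND1, 0.73 ± 0.08 for ND6 and 0.35 ± 0.09 for ND5 (log2 fold change and SE), and 6 of 7 under plain library-size scaling, where ND5 was at 0.09 and did not pass. The gene with the largest rise, ND2, which forms a proton channel, had 1418, 1310.2 and 1307 CPM at 96 h, against 821, 624 and 650.1 CPM at 0 h (log2 fold change 0.95, SE 0.08, adjusted p = 3.00e-07). ND5, the channel farthest out in the membrane arm, had 1791, 1785 and 1673 CPM at 96 h, against 1611, 1154 and 1367 CPM at 0 h (log2 fold change 0.35, SE 0.09, adjusted p = 0.00366). Every ND gene was apart between groups. Among all tested genes, 28.7% were higher and 64.1% were apart.

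Summed over genes, the ND transcripts had 7078, 6573 and 6319.6 CPM at 96 h, against 4754, 3539.9 and 3951 CPM at 0 h. The 37 nuclear subunits summed to 1524, 1542 and 1621 CPM at 96 h, against 1663, 1701 and 1608 CPM at 0 h. The ND sums were apart and the nuclear sums overlapped. The ratio of ND to nuclear subunit CPM was 4.64, 4.26 and 3.90 at 96 h, against 2.86, 2.08 and 2.46 at 0 h. This ratio does not depend on the scaling of the libraries, and its mean was 4.27 ± 0.37 at 96 h and 2.47 ± 0.39 at 0 h (SD, n = 3 each). It was higher in all 3 libraries of 96 h. The Ndufaf sum was 56.9, 64.9 and 69.0 CPM at 96 h, against 71.6, 80.4 and 70.5 CPM at 0 h. These were narrowly apart on the TMM scale, with the nearest libraries at 69.0 and 70.5 CPM. Unlike the ratio above, this sum depends on the scaling. Ndufaf genes took 0.00659% of all counts in replicate 3 of 96 h and 0.00740% in replicate 3 of 0 h. Nuclear protein-coding genes took 52.1% and 63.3% of them. Against protein-coding counts, replicate 3 of 96 h thus lay above replicate 3 of 0 h, so the groups overlapped. The ratio of nuclear subunit to Ndufaf CPM was 26.8, 23.8 and 23.5 at 96 h, against 23.2, 21.2 and 22.8 at 0 h. It was narrowly apart and was not tested. As a share of nuclear protein-coding counts, the 37 subunits took 0.287% ± 0.009 at 96 h and 0.276% ± 0.008 at 0 h (SD, n = 3 each), with overlapping libraries. As a share of all counts they took 0.143% ± 0.010 at 96 h and 0.181% ± 0.011 at 0 h, in step with the smaller share of protein-coding counts at 96 h.

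**Figure D4:**
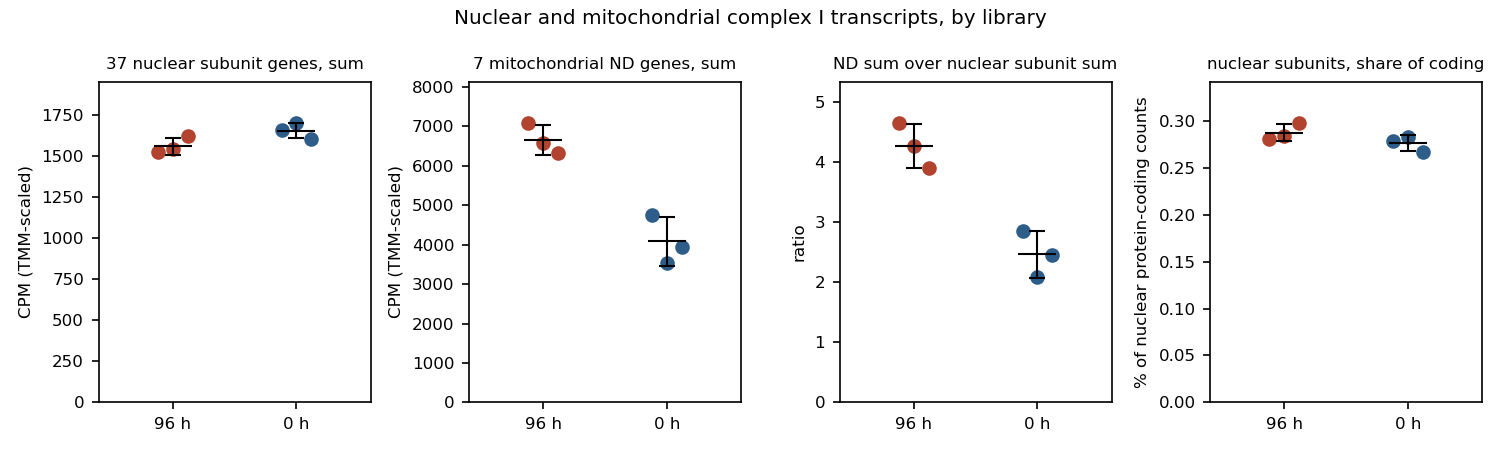
From left to right: summed CPM of the 37 nuclear subunits, summed CPM of the 7 ND genes, the ratio of ND to nuclear CPM, and the nuclear subunits' percentage of protein-coding counts (y axes, linear from 0), 96 h left of 0 h; points are libraries, and lines with bars are the group mean and SD. The ND sums and the ratio are apart between groups (ratio 3.90 to 4.64 at 96 h, 2.08 to 2.86 at 0 h), and the nuclear sums and percentages overlap.

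Genes of the other respiratory complexes were set beside complex I as lists. Complex II had 4 of 4 subunits lower, among them Sdhd at -0.63 ± 0.07 and Sdhb at -0.37 ± 0.06. Complex III had 6 of 9 lower and 1 higher: its iron-sulphur subunit Uqcrfs1 was at -0.72 ± 0.06 and Uqcrh at -0.66 ± 0.08, while Uqcrq was at 0.96 ± 0.05. Complex IV had 4 of 10 higher, with Cox6a1 at 0.40 ± 0.06 and Cox6c at 0.26 ± 0.05, and 2 lower, Cox5a at -0.44 ± 0.08 and Cox6b1 at -0.20 ± 0.08, but 0 higher and 5 lower under plain library-size scaling. Complex V had 9 of 17 lower, with the catalytic subunit Atp5f1a at -0.64 ± 0.04 and Atp5mc3 at -0.70 ± 0.05, and 1 higher, Atp5f1e at 0.37 ± 0.12, but 15 lower and 0 higher under plain library-size scaling. The median log2 fold change was -0.31 for complex II, -0.34 for complex III, 0.09 for complex IV and -0.18 for complex V, beside -0.06 for the 37 nuclear subunits of complex I, of which 9 were higher, 12 were lower and 16 did not pass. Of all tested genes, 28.8% were lower and 28.7% higher, and of nuclear protein-coding genes 32.1% were lower and 27.1% higher. No difference between complexes, or from these shares, was tested.

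Genes that build iron-sulphur clusters, which the core subunits carry, were mixed. Of 15 tested, 2 were higher, Nfu1 at 0.79 ± 0.07 and Fdxr at 0.48 ± 0.19, 3 were lower and 10 did not pass, with a median of -0.09. Among the lower ones were the scaffold Iscu at -0.52 ± 0.11 and Glrx5 at -0.23 ± 0.08. The shares over all tested genes were 28.7% higher and 28.8% lower. Under plain library-size scaling 1 of the 15 was higher and 9 were lower.

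Log2 fold change varied weakly with RNA length among the members. The 45 members used were the nuclear subunits and the Ndufaf genes, without Ndufa4 and the copies. Spearman's rho of their log2 fold change with RNA length was -0.31, beside -0.08 over 12762 genes. With GC content it was 0.13, beside 0.07. These are correlations across genes of the same 6 libraries, given as a description. With the trend of length and GC over all genes taken out, 8 of the 9 higher subunit rows with a length moved closer to 0 or past it, among them Ndufa1 at 0.28, Ndufa3 at 0.09, Ndufa7 at 0.07, Ndufs5 at 0.065, Ndufb8 at 0.044 and Ndufa6 at 0.0065, while Ndufa13 was at 0.37. Of the 12 lower subunit rows, 6 moved closer to 0, among them Ndufv2 at -0.39, Ndufs1 at -0.43, Ndufab1 at -0.43, Ndufb5 at -0.14 and Ndufa9 at -0.041. The other 6 moved away from 0, among them Ndufb10 at -0.75 and Ndufs7 at -0.67.

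Over the 16 alternatives that gave a test, 5 of the 12 lower subunit rows kept their call in every one: Ndufb10, Ndufs7, Ndufv2, Ndufab1 and Ndufs1. Of the 10 higher rows, Ndufa1 did, with its smallest change of 0.44 under library size only. Among assembly factors these were 2 of the 4 lower genes, Ndufaf4 and Ndufaf8, and 0 of 1 higher.

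**Figure D5:**
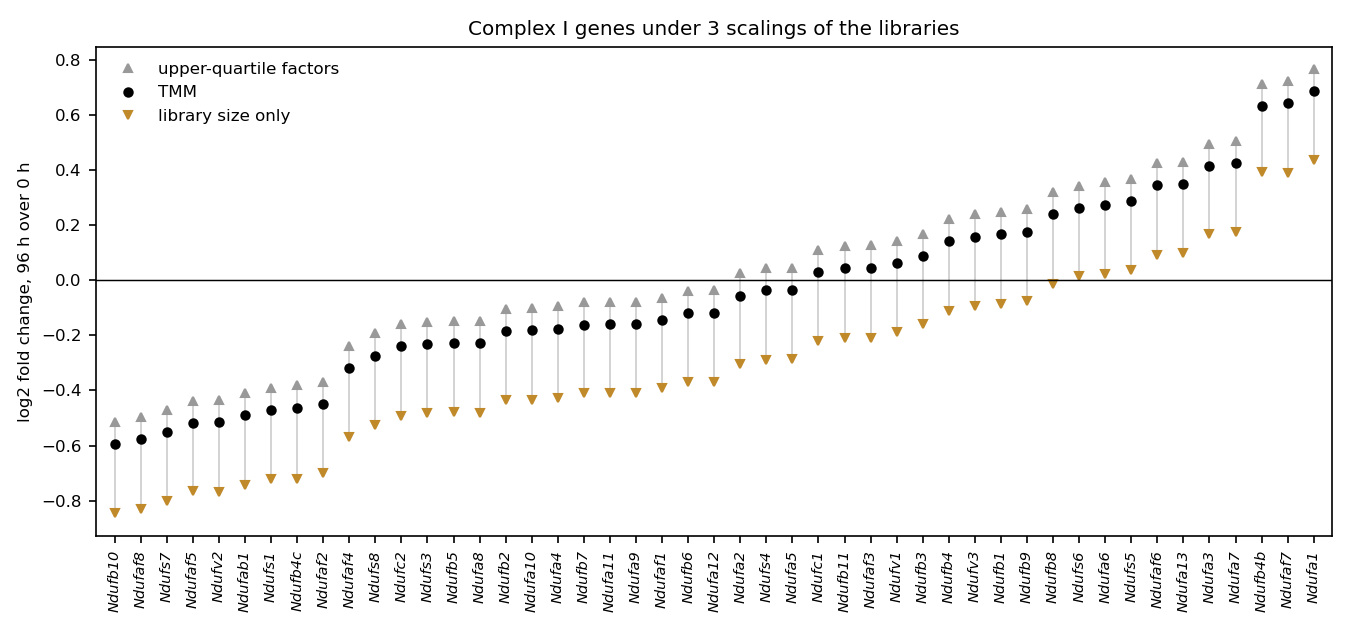
Log2 fold change (y axis, 96 h over 0 h) of the tested members drawn (x axis, ordered by the TMM value) under upper-quartile factors (triangles up), TMM (circles) and library size only (triangles down). The order of the members is nearly kept while all values shift together, so members near 0 change sign; Ndufb10 stays below 0 and Ndufa1 above 0 under all 3.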

How the data were processed

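The authors deposited estimated counts (expected counts, not normalised) for 40413 gene symbols in 6 libraries. Libraries were made from total RNA depleted of rRNA with a stranded kit, per the labels' protocols. The submitters' processing notes name the build mm39 and the tools Salmon 1.10.1, DESeq2 1.52.0 and FastQC 0.12.1; the strand setting, annotation and step from transcript to gene are not given there.

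Counts were rounded to whole numbers. In edgeR 4.0.16 (R 4.3.3), filterByExpr left 13705 genes, TMM scaled the libraries, and 96 h was compared with 0 h by the quasi-likelihood F test with Benjamini-Hochberg adjustment, threshold 0.05, tested on simulated data. SE is the size of the log2 fold change divided by the square root of F, and intervals are at the 95% level from the same fit. DESeq2 1.42.0, limma-voom 3.58.1, other scalings and filters, a replicate block, leaving out each replicate and a length and GC trend were alternatives; summing near-identical copies was added after seeing the data. Totals of 16.8 M to 20.9 M counts (M, mega) limit the precision of members with few counts.

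Lengths came from GENCODE M21 (49 of 51 members) and promoters from RefSeq (42 of 51), both on GRCm38, another build than that of the counts, and were matched by symbol. The members and lists were chosen with earlier results of these data known. Values in every library are given for all Ndufaf genes, 6 core subunits, the 5 subunit rows that rose most and the 5 that fell most among those past the threshold, and rows removed with any count; from other lists, the 2 higher and 2 lower genes with the smallest adjusted p and all ND genes. Other genes were named to complete a small count or because their motif was searched. A few genes of the lists and their values are not reported here.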

Additional observations from a re-analysis of the deposited data

How the results depend on the processing

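Under plain library-size scaling, 2409 of all genes were higher, subunit rows were 25 lower and 1 higher, no Ndufaf gene (0) was higher, and the medians were -0.34 for subunit rows and -0.48 for Ndufaf genes. In all, 10 members above 0 turned below it, of which Ndufb8 (-0.013) and Ndufb9 (-0.073) had been called higher and Ndufb11 (-0.21) and Ndufc1 (-0.22) were now called lower. Under upper-quartile scaling, 5 subunit rows and 2 Ndufaf genes were lower, and the subunit median was -0.0058. At an adjusted p under 0.01, 6 subunit rows were lower and 6 higher, and 1 Ndufaf gene was lower and 0 higher. Leaving out a replicate in turn gave 7 to 14 subunit rows lower and 5 to 9 higher, 2 to 4 Ndufaf genes lower and 0 to 1 higher, and a Ndufaf median of -0.43 to -0.10. The length and GC trend, once removed, gave -0.0016 for Ndufb9 and -0.040 for Ndufs6, and -0.0012 and -0.047 together with the replicate block. Causes were not tested. Deviations of same-numbered libraries correlated at -0.01, 0.03 and -0.01, so they showed no shared deviation. Whether same-numbered samples were paired in the experiment cannot be told from this. The replicate block gave 13 subunit rows lower and 10 higher and 4 Ndufaf genes lower and 1 higher, and changed 1 member's call (Ndufb4c, now lower). DESeq2 size factors and limma-voom changed no member's call. Few counts limit the precision of the Ndufaf genes.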
